A study of Mus musculus with 12 samples.

Results

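The NF-κB system of mouse CD4+ T cells was followed through 10 genes, taken by name as the Rel family subunits Nfkb1, Nfkb2, Rela, Relb and Rel and their inhibitors Nfkbia, Nfkbie, Nfkbiz, Bcl3 and Tnfaip3. They are 10 of the 38924 gene identifiers counted, and all 10 were among the 13811 genes abundant enough to be tested. The libraries came from cultured CD4+ T cells of C57BL/6 spleens, either wild type (WT) or STINGgt/gt, where the Goldenticket allele leaves no working STING, the adaptor that senses cyclic dinucleotides. Sorted naive T cells had been expanded with antibodies to CD3 and CD28, rested, and then exposed for 16 h either to the solvent DMSO or to CMA, an acridanone that binds and activates mouse STING. Each of the 4 groups (WT with DMSO, WT with CMA, STINGgt/gt with DMSO, STINGgt/gt with CMA) held 3 libraries. The labels name no animals, so the p-values measure the spread between these libraries. The stimulation through CD3 and CD28 was common to all groups, and no unstimulated T cells were analysed here.

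NF-κB is a set of dimers of Rel family proteins that IκB proteins hold in the cytoplasm until IκB kinase (IKK) marks the IκB for destruction. In the canonical branch, IKK frees dimers of RelA or c-Rel with p50, the product of Nfkb1. In the non-canonical branch, the kinase NIK drives the trimming of p100, the product of Nfkb2, to p52, the partner of RelB. Several inhibitor genes are themselves NF-κB targets, and in T cells the pathway is best known for carrying signals from the antigen receptor and CD28. STING is known to act mainly through TBK1 and IRF3 and also to engage NF-κB.

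Promoter sequence was at hand for 7 of the 10 genes (RefSeq windows on GRCm38.p6, from 250 bases before to 50 after a transcription start), with 10 windows in all and none for Nfkb1, Relb and Nfkbiz. They were searched on both strands for the κB letters GGG and TTCC with any 3 bases between them, for the NF-κB consensus of 10 letters, which overlaps that pattern, and for the core of the interferon-stimulated response element, GAAA repeated after any 2 bases. Either κB motif was found in 9 of the 10 windows, of 6 genes, and in 8.46% of all 32851 mouse windows. Windows of the same gene can overlap, and a match shared by overlapping windows of Nfkb2 was counted in each. The interferon core was in none of the 10 windows and in 3.44% of all windows. Sequences are printed for the genes with the largest responses to CMA (Nfkbia, Nfkbie, Nfkb2, Tnfaip3), for Rel as a gene with a motif and a smaller response, and for Rela, the only gene of the 7 whose window held no κB match. Each is the 250 bases before the start, 5′ to 3′ along the gene, with κB matches in capitals. Their positions are chr12:55492648-55492897 (minus strand) for Nfkbia, chr17:45555450-45555699 (plus) for Nfkbie, chr19:46304487-46304736 (plus) for Nfkb2, chr10:19015411-19015660 (minus) for Tnfaip3, chr11:23770970-23771219 (minus) for Rel and chr19:5637291-5637540 (plus) for Rela.
Nfkbia: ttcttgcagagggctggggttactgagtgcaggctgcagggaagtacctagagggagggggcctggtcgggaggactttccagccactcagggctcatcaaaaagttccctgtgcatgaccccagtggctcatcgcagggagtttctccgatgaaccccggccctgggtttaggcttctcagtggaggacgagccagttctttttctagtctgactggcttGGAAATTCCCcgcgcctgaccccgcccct
Nfkbie: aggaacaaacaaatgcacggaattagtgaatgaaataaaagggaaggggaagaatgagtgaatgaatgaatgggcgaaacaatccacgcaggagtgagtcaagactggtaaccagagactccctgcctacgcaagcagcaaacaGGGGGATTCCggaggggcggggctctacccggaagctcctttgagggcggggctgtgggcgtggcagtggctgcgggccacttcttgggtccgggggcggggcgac
Nfkb2: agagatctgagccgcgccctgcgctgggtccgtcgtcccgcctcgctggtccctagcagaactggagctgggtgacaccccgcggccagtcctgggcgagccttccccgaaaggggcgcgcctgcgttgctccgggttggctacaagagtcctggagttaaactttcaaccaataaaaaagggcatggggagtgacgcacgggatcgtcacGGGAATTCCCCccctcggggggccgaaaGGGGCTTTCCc
Tnfaip3: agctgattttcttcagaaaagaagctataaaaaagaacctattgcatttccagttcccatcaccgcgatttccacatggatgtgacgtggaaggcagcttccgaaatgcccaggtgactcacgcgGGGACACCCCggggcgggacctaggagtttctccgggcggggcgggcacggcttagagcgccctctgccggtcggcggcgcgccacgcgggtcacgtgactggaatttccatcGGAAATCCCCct
Rel: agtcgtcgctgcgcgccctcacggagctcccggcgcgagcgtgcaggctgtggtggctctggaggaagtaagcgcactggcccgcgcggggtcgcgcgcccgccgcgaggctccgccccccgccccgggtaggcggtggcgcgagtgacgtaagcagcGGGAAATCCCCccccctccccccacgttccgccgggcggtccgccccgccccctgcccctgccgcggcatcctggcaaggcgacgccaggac
Rela: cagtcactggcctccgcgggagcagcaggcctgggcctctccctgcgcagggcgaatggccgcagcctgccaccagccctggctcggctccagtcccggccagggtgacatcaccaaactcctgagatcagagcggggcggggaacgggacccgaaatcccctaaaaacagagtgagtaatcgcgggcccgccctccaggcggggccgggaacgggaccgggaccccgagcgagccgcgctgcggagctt

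In the windows printed, the match of Nfkbia began at position -29 from its start, that of Nfkbie at -106, those of Rel at -92 and -91 on overlapping bases, and those of Nfkb2 at -39, -38 and -11. In Tnfaip3 the matches began at -125 and -12, with a further match after the start, at position 33. The other window of Tnfaip3 held a match at -90, and the other windows of Nfkb2 held matches at -236 and 10 and at -225. These other windows of Nfkb2 overlap, and the matches at 10 and -225 are the same bases. The only match of Bcl3 also lay after the start, at position 2. A match gives letters in a window and no more.

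Each library held 27414450 to 43784910 reads assigned to genes. Within groups the libraries differed by more than counting noise in every pair, and the pair that differed most was replicates 2 and 3 of WT with DMSO, whose chi-square statistic over its degrees of freedom was 27.7 against 2.52 to 9.46 in the other pairs. Tmem173, which encodes STING, was read in every library, at 183 to 190 CPM (counts scaled to a common library size) in WT with DMSO, 296 to 316 in WT with CMA, 168 to 181 in STINGgt/gt with DMSO and 169 to 184 in STINGgt/gt with CMA. Since the Goldenticket allele changes a codon and not the transcript, these levels do not check the genotype labels. The 6 T cell markers (Cd3d, Cd3e, Cd3g, Cd4, Cd28, Lck) summed to between 2057 and 2453 CPM in all libraries. Markers of other cells were also read, and no marker was at 0 in any group. The 6 B cell markers summed to 694 to 877 CPM in WT and to 311 to 340 CPM in STINGgt/gt, led by Ighm. The 7 myeloid markers summed to 57.4 to 74.8 CPM in WT and to 38.9 to 44.2 CPM in STINGgt/gt. The 6 CD8 and NK cell markers summed to 93.9 to 111 CPM in WT with DMSO, to 49.9 to 52.9 CPM in WT with CMA and to 31.4 to 34.0 CPM in STINGgt/gt. In such bulk samples, fewer cells of a type and less RNA per cell cannot be told apart.

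CMA raised 8 of the 10 genes in WT T cells and lowered none (edgeR's quasi-likelihood test, adjusted p under 0.05). Of all genes tested, 33.0% were called higher, 37.4% lower and 70.4% in either direction, so a call alone was common in this comparison. A rise of at least 2-fold was rarer, at 9.32% of all genes, and was seen for 5 of the 10: Nfkbie, Nfkbia, Tnfaip3, Nfkb2 and Relb. The median log2 difference of the 10 was 0.91, and that of all genes tested was -0.04. Bcl3 and Nfkb1 did not pass the threshold. The same 8 genes had all 3 CMA libraries above all 3 DMSO libraries, which held for 33.5% of all genes tested, and for 71.1% when both directions were counted.

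**Figure D1:**
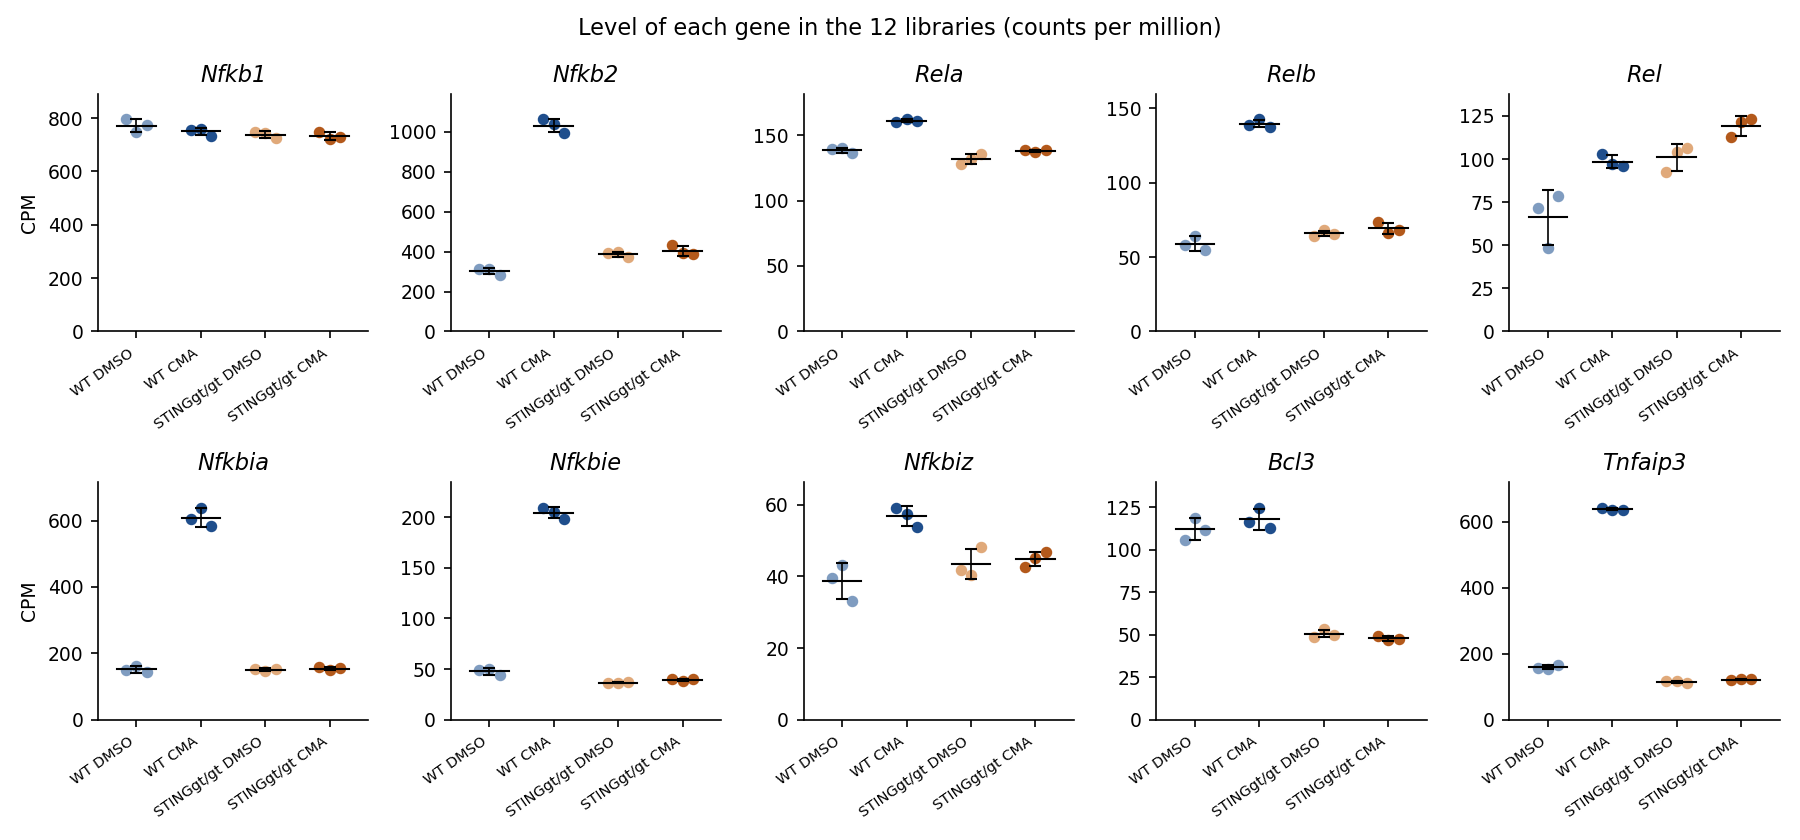
Level of each gene in CPM (linear axes from 0) in the 12 libraries; points are libraries, the horizontal line is the group mean and the bar is the SD (n = 3). Nfkb2, Relb, Nfkbia, Nfkbie and Tnfaip3 stand apart in WT with CMA, Bcl3 differs between the genotypes under both treatments, and Nfkb1 lies between 720 and 795 CPM throughout.

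Among the subunits, those of the non-canonical branch rose most. Nfkb2 (ENSMUSG00000025225, chr19:46304737-46312090, plus strand), which encodes p100 and its product p52, was read at 312, 311 and 283 CPM in WT with DMSO and at 1062, 1038 and 994 CPM in WT with CMA. The ranges were far apart, and the rise was 3.41-fold (log2 1.77, SE 0.054, adjusted p = 5.08e-14). Its exons share 11.6% of their bases with AC114539.1 and 6.52% with Psd, both on the opposite strand, and the strand setting of the counting is not given in the sources used here. Relb (ENSMUSG00000002983, chr7:19606217-19629438, minus strand) encodes the usual partner of p52. It was at 58.2, 64.5 and 54.8 CPM with DMSO and at 139, 143 and 138 CPM with CMA, so that the lowest CMA library lay well above the highest DMSO library. The rise was 2.37-fold (log2 1.24, SE 0.057, adjusted p = 7.55e-12).

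The subunits of the canonical branch moved less. Rela (ENSMUSG00000024927, chr19:5637483-5648130, plus strand), the main activating subunit, was at 139, 140 and 136 CPM with DMSO and at 160, 162 and 161 CPM with CMA. The groups did not overlap, but the rise was small, at 1.16-fold (log2 0.22, SE 0.038, adjusted p = 7.44e-05). Rel (ENSMUSG00000020275, chr11:23741514-23770970, minus strand) encodes c-Rel, the subunit best known from lymphocyte activation. It was read at 71.7, 48.2 and 78.8 CPM in WT with DMSO and at 103, 96.9 and 95.8 CPM in WT with CMA. The DMSO libraries were the most scattered of any gene and group here, with a coefficient of variation of 24.2%. The rise of Rel was 1.48-fold (log2 0.57, SE 0.12, adjusted p = 0.000413). It was 0.38 on the log2 scale without replicate 2 of WT with DMSO, the low library, and 0.73 without replicate 3. Nfkb1 (ENSMUSG00000028163, chr3:135584655-135691547, minus strand), the source of p50, was at 795, 748 and 773 CPM with DMSO and at 755, 760 and 734 CPM with CMA. These groups overlapped, and the log2 difference was -0.04 with a 95% confidence interval from -0.12 to 0.04 (adjusted p = 0.337).

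Nfkbia and Nfkbie, the inhibitors among the 10 genes that hold dimers in the cytoplasm, rose with larger estimates than any subunit. Nfkbia (ENSMUSG00000021025, chr12:55489411-55492647, minus strand) encodes IκBα, the inhibitor that is resynthesised after NF-κB activation. It was read at 151, 161 and 142 CPM in WT with DMSO and at 605, 639 and 583 CPM in WT with CMA, with no overlap. The rise was 4.02-fold (log2 2.01, SE 0.052, adjusted p = 6.20e-15). Nfkbie (ENSMUSG00000023947, chr17:45555716-45563169, plus strand) encodes IκBε, a related cytoplasmic inhibitor. It was at 49.2, 50.5 and 44.2 CPM with DMSO and at 209, 205 and 198 CPM with CMA. Its rise of 4.27-fold was the largest estimate of the 10 (log2 2.09, SE 0.050, adjusted p = 2.78e-15), although the intervals of Nfkbie, Nfkbia and Tnfaip3 overlapped.

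Nfkbiz and Bcl3 encode nuclear IκB proteins, which modify dimers already on DNA, and only Nfkbiz passed the test. Nfkbiz (ENSMUSG00000035356, chr16:55811375-55838899, minus strand) encodes IκBζ and was at 39.7, 43.3 and 33.2 CPM with DMSO and at 59.2, 57.5 and 53.7 CPM with CMA. The groups did not overlap, and the rise was 1.47-fold (log2 0.56, SE 0.083, adjusted p = 1.56e-05). Bcl3 (ENSMUSG00000053175, chr7:19808462-19822770, minus strand) encodes a nuclear partner of p50 and p52. It was at 106, 119 and 112 CPM with DMSO and at 116, 125 and 113 CPM with CMA. The groups overlapped, and the log2 difference was 0.07 with a 95% interval from -0.04 to 0.18 (adjusted p = 0.226). The exons of Bcl3 share 6.51% of their bases with the antisense gene Gm16175.

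Tnfaip3 (ENSMUSG00000019850, chr10:19000910-19015657, minus strand) encodes A20, a ubiquitin-editing enzyme that shuts off IKK activation upstream of the IκB proteins. It was read at 158, 154 and 165 CPM in WT with DMSO and at 642, 635 and 635 CPM in WT with CMA. The groups did not overlap, and the coefficient of variation of the CMA libraries was only 0.619%. The rise was 4.01-fold (log2 2.00, SE 0.041, adjusted p = 3.65e-16), and it ranked 471 from the top among the 13811 genes tested.

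**Figure D2:**
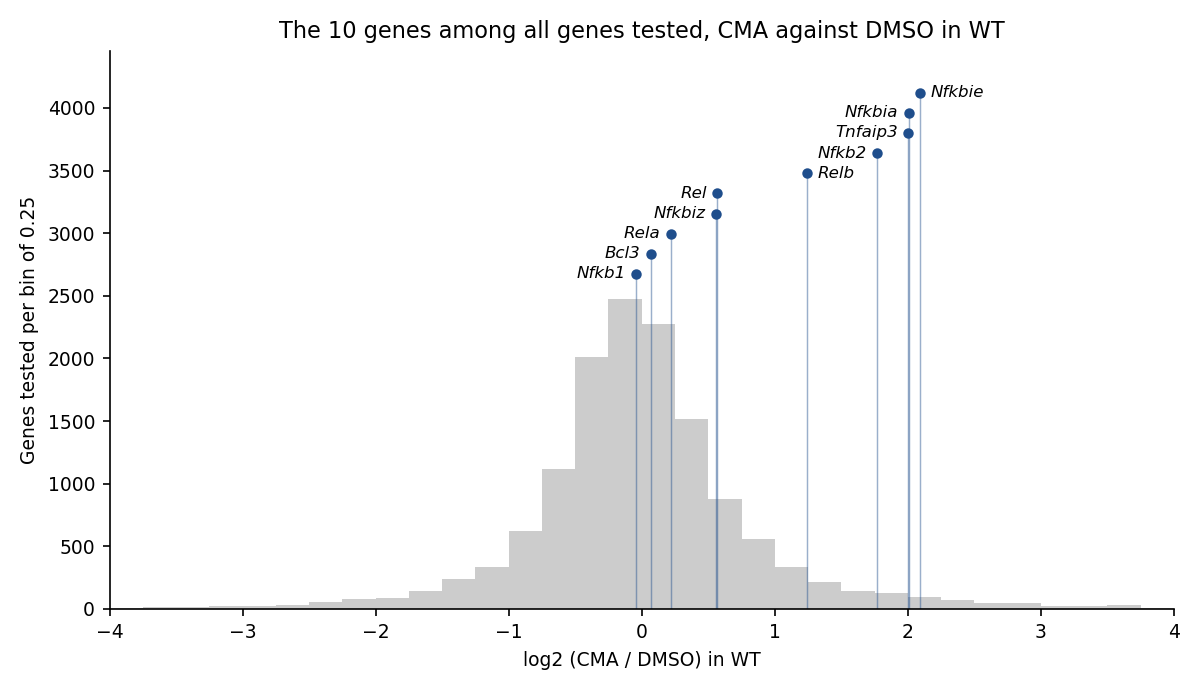
Distribution of log2 (CMA / DMSO) in WT over the genes tested, in bins of 0.25 (grey bars, axis cut at 4 on either side, beyond which lay 156 genes), with the 10 genes marked at their own values; the height of a marker carries no value. Nfkbie, Nfkbia, Tnfaip3 and Nfkb2 lie in the upper tail and Nfkb1 and Bcl3 near the centre.

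In STINGgt/gt T cells, CMA moved none of the 10 genes past the threshold by edgeR, where 1.32% of all genes tested were called (0.398% higher and 0.92% lower). At an unadjusted p under 0.05, 1 of the 10 and 1790 of all genes passed, and DESeq2 called 0 of the 10. The log2 differences ran from -0.08 for Bcl3 to 0.24 for Rel, with a median of 0.06 against 0.00131 over all genes tested. Nfkbia was read at 153, 146 and 154 CPM with DMSO and at 158, 150 and 154 CPM with CMA, which gave a log2 difference of 0.03 with a 95% interval from -0.08 to 0.14. Nfkbie was at 36.1, 36.4 and 37.1 CPM with DMSO and at 40.4, 38.2 and 39.8 CPM with CMA, the only member with an unadjusted p under 0.05 (0.0480, log2 0.11, adjusted p = 0.380). Tnfaip3 was at 116, 117 and 112 CPM and at 120, 122 and 122 CPM, and its interval ran from -0.01 to 0.16 on the log2 scale. The CMA libraries lay above the DMSO libraries without overlap for Rela, Rel, Nfkbie and Tnfaip3, that is 4 of 10, where 11.8% of all genes tested did so and 23.1% were apart in either direction. These 4 separations were small: the log2 differences were 0.07 for Rela, 0.24 for Rel, 0.11 for Nfkbie and 0.07 for Tnfaip3.

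Rel had the largest estimate of the 10 in STINGgt/gt. It was read at 92.3, 104 and 107 CPM with DMSO and at 113, 122 and 123 CPM with CMA, and the log2 difference was 0.24 with a 95% interval from -0.004 to 0.48 (adjusted p = 0.395). It passed the threshold in 3 of 21 alternative settings, over which its adjusted p ranged from 0.00386 to 0.723. The other subunits were nearly level: Nfkb2 went from a mean of 388 ± 13 CPM to 404 ± 26 CPM (SD, n = 3) and Relb from 66.0 ± 1.8 CPM to 69.4 ± 3.8 CPM (SD, n = 3).

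**Figure D3:**
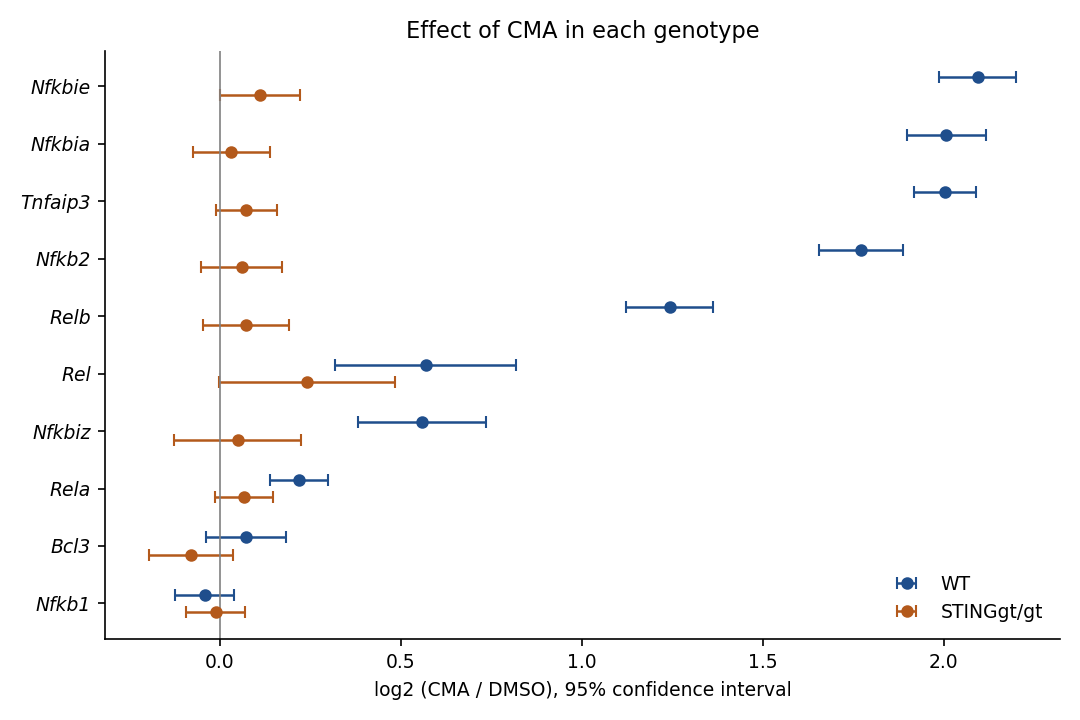
log2 (CMA / DMSO) of each gene in WT (blue) and STINGgt/gt (orange) from edgeR, with 95% confidence intervals; the vertical line marks no difference. In WT, 8 of the 10 intervals lie above 0, and the STINGgt/gt estimates all lie between -0.08 and 0.24.

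The response to CMA was then compared between the genotypes by an interaction term. It was more positive in WT for 7 of the 10 genes, where 27.2% of all genes tested were called in that direction, 31.6% in the other and 58.8% in either. The difference of the log2 responses was 1.98 for Nfkbie (adjusted p = 1.48e-12), 1.97 for Nfkbia (adjusted p = 1.54e-12), 1.93 for Tnfaip3 (adjusted p = 1.72e-13), 1.71 for Nfkb2 (adjusted p = 1.56e-11) and 1.17 for Relb (adjusted p = 3.00e-09). It was smaller for Nfkbiz, at 0.51 (adjusted p = 0.00137), and for Rela, at 0.15 (adjusted p = 0.0231). The call of Rela was lost in 5 of 20 alternative settings, with an adjusted p between 0.00196 and 0.0972 over all of them, and among these without replicate 2 of WT with CMA (0.0541) or replicate 2 of STINGgt/gt with DMSO (0.0544). These 5 settings included the replicate block by library name, with which 6 of the 10 genes were called. For Rel the difference was 0.33 (95% interval from -0.02 to 0.68, adjusted p = 0.0974) and for Bcl3 0.15 (95% interval from -0.007 to 0.31, adjusted p = 0.0923), and each was called in 3 of 20 alternatives. The value of Rel was 0.14 without replicate 2 of WT with DMSO and 0.49 without replicate 3, and Bcl3 was called without that replicate 2 (0.19, adjusted p = 0.0240). For Nfkb1 it was -0.03, with an interval from -0.15 to 0.08.

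The genotypes already differed without CMA. With DMSO, WT was higher than STINGgt/gt for 3 of the 10 genes and lower for 3, where 42.7% of all genes tested were called (22.9% higher and 19.8% lower in WT). Bcl3 differed most: it was read at 106, 119 and 112 CPM in WT and between 48.9 and 53.1 CPM in STINGgt/gt, 2.21-fold higher in WT (log2 1.15, SE 0.054, adjusted p = 7.26e-11). A difference of at least 2-fold in that direction was found for 5.73% of all genes. Tnfaip3 was 1.38-fold higher in WT (log2 0.46, SE 0.040, adjusted p = 1.10e-07) and Nfkbie 1.31-fold higher (log2 0.39, SE 0.052, adjusted p = 1.49e-05). No WT library overlapped a STINGgt/gt library for these 3 genes, nor for Nfkb1 and Rela, which did not pass. All WT libraries were thus the higher ones for 5 of the 10 genes, which held for 25.3% of all genes tested, and the lower ones for 2 (Nfkb2 and Rel; 22.6% of all genes). Of all genes, 47.9% were apart in either direction.

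The 3 genes that were lower in WT with DMSO were subunits. Rel differed most, at 71.7, 48.2 and 78.8 CPM in WT against 92.3, 104 and 107 CPM in STINGgt/gt (log2 -0.60, SE 0.12, adjusted p = 0.000596), and without the low WT library the difference was -0.43. Nfkb2 was at 312, 311 and 283 CPM against 391, 398 and 373 CPM (log2 -0.36, SE 0.053, adjusted p = 4.52e-05). Relb passed narrowly (log2 -0.16, SE 0.057, adjusted p = 0.0323) with overlapping libraries, and its call was lost in 5 of 20 alternatives, over which the adjusted p ranged from 0.000997 to 0.104. These included leaving out replicate 1 (0.0781) or 3 (0.104) of WT or replicate 2 (0.0991) or 3 (0.0572) of STINGgt/gt. Nfkbia was level, with a log2 difference of 0.01 and a 95% interval from -0.10 to 0.11, and Rela, Nfkb1 and Nfkbiz did not pass (log2 0.07, 0.07 and -0.17). Nfkbiz was called without replicate 2 of WT with DMSO (log2 -0.27, adjusted p = 0.00759).

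The markers of other cells moved with this comparison. With DMSO, WT was higher for all 6 B cell markers (median log2 difference 1.15), for all 6 myeloid markers tested and for 5 of 6 CD8 and NK cell markers, against 22.9% of all genes. The differences were 2.71 for Lyz2 and 2.43 for Gzma on the log2 scale. The most abundant of the B cell markers, Ighm, was at 494 CPM in WT and at 205 CPM in STINGgt/gt with DMSO. Bcl3, Nfkbie and Tnfaip3, which were higher in WT with DMSO (log2 1.15, 0.39 and 0.46), are also expressed by B cells and myeloid cells. The other NF-κB genes did not move with these markers. Rel, Nfkb2 and Relb were lower in WT with DMSO (log2 -0.60, -0.36 and -0.16), and Nfkbia, Rela, Nfkb1 and Nfkbiz did not pass. Expression of these other genes in B cells and myeloid cells was not examined. Markers moved with CMA in WT as well: 4 of 6 B cell markers were higher, 5 of 6 CD8 and NK cell markers lower, and of 6 T cell markers 4 were lower and 1, Cd4 itself, higher (log2 0.19). Of 6 myeloid markers tested 1 was higher and 3 lower. With CMA in WT, 33.0% of all genes tested were called higher, 37.4% lower and 70.4% in either direction, so such calls were common. In WT the summed B cell markers were 694 to 766 CPM with DMSO and 787 to 877 CPM with CMA. In STINGgt/gt no marker of these lists was called with CMA, where 1.32% of all genes tested were called. The part of these markers in the results was not tested.

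**Figure D4:**
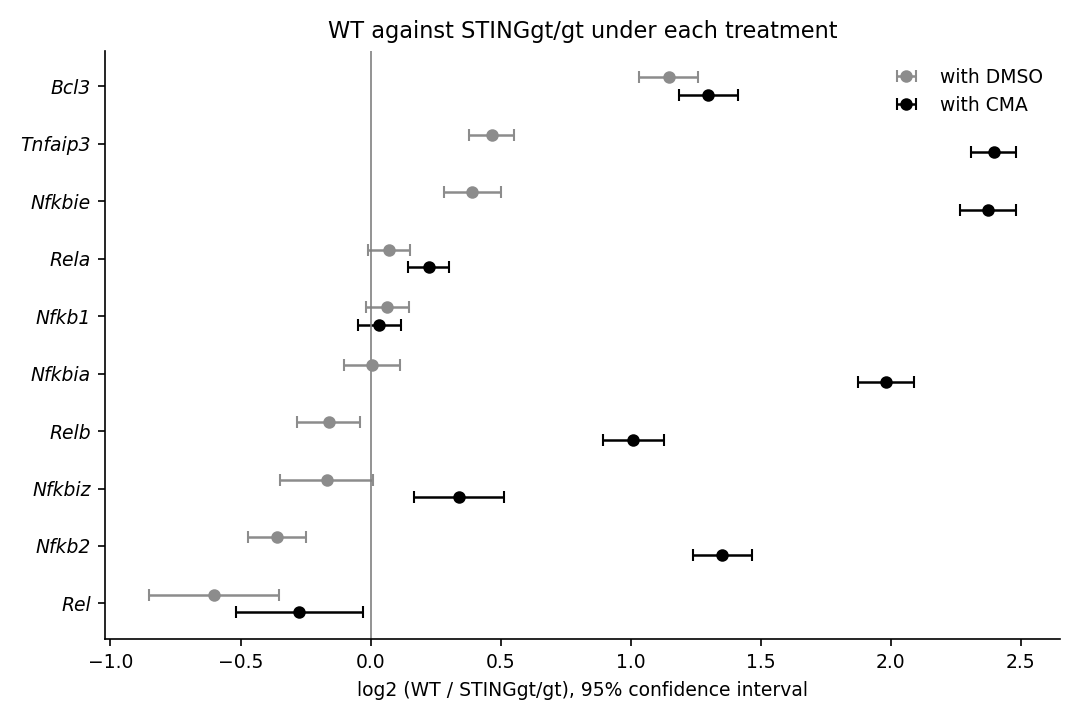
log2 (WT / STINGgt/gt) of each gene with DMSO (grey) and with CMA (black) from edgeR, with 95% confidence intervals; the vertical line marks no difference. With DMSO the genes spread to both sides of 0, from -0.60 for Rel to 1.15 for Bcl3, while with CMA only Rel lies below 0.

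With CMA, WT was higher for 8 of the 10 genes and lower for 1, where 37.0% of all genes tested were higher, 36.5% lower and 73.5% either. The same 8 and 1 genes had libraries that did not overlap, against 39.7% and 39.2% of all genes (78.9% in either direction). Tnfaip3 was 5.26-fold higher, Nfkbie 5.18-fold (log2 2.37), Nfkbia 3.95-fold (log2 1.98), Nfkb2 2.55-fold (log2 1.35), Bcl3 2.46-fold and Relb 2.01-fold (log2 1.01). Nfkb2 and Relb, lower in WT with DMSO, were thus higher in WT with CMA. Nfkbiz (log2 0.34) and Rela (log2 0.22) differed less, and Nfkb1 did not pass (log2 0.03, adjusted p = 0.436). Rel was the only gene lower in WT under both treatments (log2 -0.27 with CMA, adjusted p = 0.0414), and its call with CMA was lost in 12 of 20 alternatives, over which the adjusted p ranged from 4.50e-06 to 0.119. It was lost without any single CMA library of either genotype (0.0536 to 0.119) and without replicate 1 of WT with DMSO (0.0563) or replicate 1 (0.0544) or 3 (0.0586) of STINGgt/gt with DMSO. The comparisons share libraries: WT with DMSO enters the response to CMA in WT and the comparison of genotypes with DMSO.

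The order of levels over the 4 groups differed between the genes. Nfkbia, Nfkbie, Tnfaip3, Nfkb2, Relb, Rela and Nfkbiz were highest in WT with CMA. For Nfkbia the 3 other groups lay between 142 and 161 CPM, and neighbours among them overlapped. For Tnfaip3 and Nfkbie, WT with DMSO followed and the STINGgt/gt groups came last. For Nfkb2 and Relb, WT with DMSO was the lowest of the 4 groups. Bcl3 had both WT groups above both STINGgt/gt groups, and its neighbours within a genotype did not pass the test. For Nfkb1 no neighbours in the order passed. Rel alone was highest in STINGgt/gt with CMA, at 119 ± 5.5 CPM (SD, n = 3), and its levels in STINGgt/gt with DMSO and WT with CMA, the neighbours in the middle of its order, overlapped (log2 difference 0.03, adjusted p = 0.798).

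Levels of different genes were set beside each other per length, as CPM per kb of annotated exon. Of the summed level of the 5 subunits, Nfkb2 held 33.1% ± 1.3 in WT with DMSO, 57.9% ± 0.61 in WT with CMA, 38.6% ± 0.87 in STINGgt/gt with DMSO and 38.7% ± 1.3 in STINGgt/gt with CMA (SD, n = 3 each). Nfkb1 went the other way, from 32.2% ± 0.84 in WT with DMSO to 16.0% ± 0.16 in WT with CMA, at a nearly constant level of its own. Rela went from 22.6% ± 0.38 to 13.5% ± 0.35 of the sum, Relb went from 7.65% ± 0.62 to 9.26% ± 0.19, and Rel from 4.46% ± 1.1 to 3.39% ± 0.084. The shares of Rel overlapped, at 3.25 to 5.42% in WT with DMSO and 3.31 to 3.48% in WT with CMA. The sum of all 5 went from 199 to 389 CPM per kb. The ratio of Nfkbia plus Nfkbie to the 5 subunits was 0.552 ± 0.031 in WT with DMSO, 1.15 ± 0.034 in WT with CMA, 0.483 ± 0.020 in STINGgt/gt with DMSO and 0.478 ± 0.0074 in STINGgt/gt with CMA (SD, n = 3 each). These are shares of transcripts, not of proteins, and they depend on the length used. The annotated exons of Nfkb1 cover 12061 bases, 2.93 times its transcript with the longest coding sequence, whereas for Rel both lengths are 7466 bases. With the length of that transcript, a choice made after seeing the values, Nfkb1 held 50.6% and Nfkb2 26.0% in WT with DMSO, and 28.2% and 50.8% in WT with CMA. The ratio of Nfkbia plus Nfkbie to the 5 subunits was then 0.314 and 0.731 in these groups. Other IκB genes are not in this ratio, and it does not measure inhibition.

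**Figure D5:**
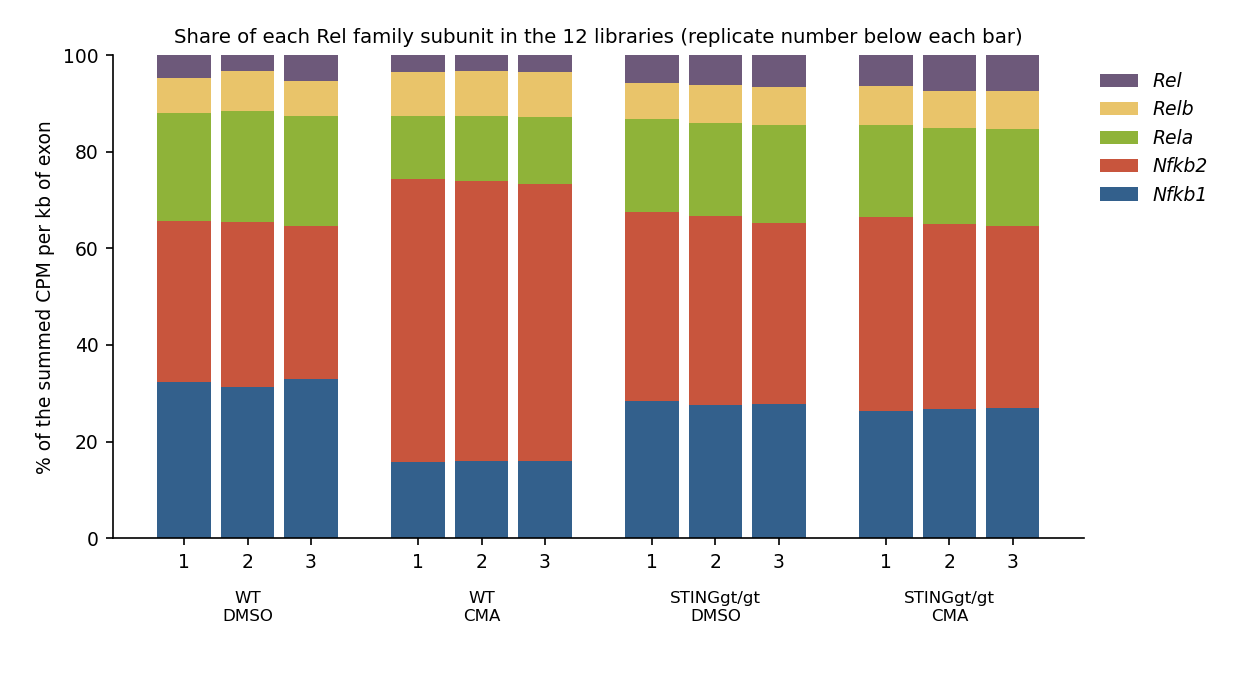
Share of each Rel family subunit in their summed CPM per kb of annotated exon, as a stacked bar for each of the 12 libraries (replicate number under the bar). In WT with CMA, Nfkb2 holds 57.3 to 58.5% in the 3 libraries, against 31.7 to 34.2% in WT with DMSO; with the length of 1 transcript its mean shares are 50.8% and 26.0%.

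The order of the 10 genes per kb of exon had Nfkbia at the top and Nfkb2 next in every group, although their libraries overlapped in STINGgt/gt with CMA. In WT with DMSO, Nfkbia was at 94.2 ± 5.8 CPM per kb, while Nfkb2 (65.9 ± 3.6) and Nfkb1 (64.0 ± 1.9) overlapped, as did Bcl3 (45.3 ± 2.6) and Rela (45.1 ± 0.67) (SD, n = 3). In WT with CMA, Nfkbia reached 378 ± 18 and Nfkb2 225 ± 7.5 CPM per kb, and Tnfaip3 (88.2 ± 0.55) and Nfkbie (67.1 ± 1.8) passed Nfkb1 (62.2 ± 1.2) (SD, n = 3). With the length of 1 transcript, Nfkb1 was at the top in the other 3 groups, at 188 CPM per kb in WT with DMSO, and in WT with CMA the levels of Tnfaip3 (144) and Nfkbie (86.7) both lay below that of Nfkb1 (182).

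For 4 of the genes, the genes of most similar pattern were sought by Pearson's r of log2 CPM over the 12 libraries, among 11199 genes with a mean count of at least 50. The libraries share their group differences, so high values are common and carry no test. Among the nearest to Nfkbia were Shisa5 (0.999) and Ccrl2 (0.999), nearest to Nfkb2 were Tapbpl (0.998), Tap2 (0.996) and Arrdc4 (0.995), and among the nearest to Rela were Pld2 (0.987) and Amigo2 (0.986). Nearest to Rel were Spin1 (0.979), Polq (0.978) and Larp1 (0.973). Among the 10 genes themselves, r was 0.997 for Nfkbie with Tnfaip3, 0.994 for Nfkb2 with Relb and 0.989 for Nfkbia with Nfkbie, whereas it was 0.106 for Rel with Nfkbia and 0.0487 for Nfkb1 with Nfkbia.

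Around the 10 genes, 44 further regulators of the pathway were examined, all of which were tested. With CMA in WT, 27 were higher, 3 lower and 14 did not pass, with a median log2 difference of 0.22, below the 0.91 of the 10 genes (of all genes tested, 33.0% were higher and 37.4% lower). In STINGgt/gt only Prkcq was called. The other IκB genes rose in WT: Nfkbib, which encodes IκBβ, went from 54.2 ± 2.0 to 128 ± 6.6 CPM (log2 1.24) and Nfkbid, which encodes the nuclear IκBNS, from 26.4 ± 4.2 to 47.3 ± 1.4 CPM (log2 0.85) (SD, n = 3).

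Of the 11 genes of the IKK complex and the kinases and adaptors upstream of it, 6 were higher and 1 lower, and the share called was no larger than the 70.4% of all genes tested. Tab2, an adaptor of the kinase TAK1, went from 162 ± 12 to 275 ± 1.2 CPM (log2 0.76) (SD, n = 3), and its relative Tab3 rose by less (log2 0.46). Traf2 (log2 0.33) and Ikbkg, the scaffold subunit NEMO of IKK (log2 0.29), rose slightly, whereas Ikbkb, its catalytic subunit IKKβ, did not pass (log2 0.09, adjusted p = 0.103). Chuk, the other catalytic subunit IKKα, was the 1 lower gene (log2 -0.22, adjusted p = 0.00164). Genes of the antigen receptor branch did not all change in the same direction. Malt1, a protease that acts after the antigen receptor, fell from 590 ± 35 to 282 ± 4.1 CPM (log2 -1.07) (SD, n = 3). Bcl10, an adaptor that binds it, was slightly higher (log2 0.17), as was the kinase gene Prkcq (log2 0.23), which was also higher with CMA in STINGgt/gt (log2 0.20, adjusted p = 0.0482).

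In the non-canonical branch, 6 of 8 genes were higher and none lower, where 33.0% of all genes tested were higher and 70.4% were called in either direction. Cd40, a receptor usually studied on B cells, went from 12.4 ± 1.1 to 39.4 ± 0.46 CPM (log2 1.67), and with DMSO it was also higher in WT than in STINGgt/gt (log2 1.21). Birc2 (log2 0.98) and Birc3 (log2 0.42), which encode the ubiquitin ligases cIAP1 and cIAP2 that keep NIK low, rose together with Map3k14, the gene of NIK itself (log2 0.32). In the TBK1 and IKKε branch, which acts directly after STING, 4 of 5 genes were higher and none lower: Ikbke, which encodes IKKε, went from 66.8 ± 13 to 234 ± 6.0 CPM (log2 1.81), and Tbkbp1 (log2 0.65), Tbk1 (log2 0.42) and Azi2 (log2 0.21) rose less. With DMSO, Ikbke was lower in WT than in STINGgt/gt (log2 -0.77).

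Of 14 ubiquitin enzymes and A20 partners, 6 were higher and 1 lower in WT with CMA, where 33.0% of all genes tested were higher and 37.4% lower. Tnip1, which encodes the A20-binding protein ABIN1, went from 126 ± 8.8 to 425 ± 16 CPM (log2 1.76) (SD, n = 3). N4bp1 (log2 0.74) and Zc3h12a, the gene of the ribonuclease Regnase-1 (log2 0.70), also rose, as did Rnf31 (log2 0.56), the catalytic subunit of the linear ubiquitin ligase. Cyld, a deubiquitinase that opposes the same signal, did not pass (log2 0.11, adjusted p = 0.172); it, Ikbkb and Chuk were named after their values were seen. The interaction term was positive past the threshold for Tnip1 (1.70) and Ikbke (1.78), and negative for Malt1 (-0.90).

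Textbook NF-κB targets outside the 10 genes were mostly higher in WT with CMA: of 38, 30 were tested, 22 were higher, 4 were lower and 4 did not pass, with a median log2 difference of 0.77, where of all genes tested 33.0% were higher, 37.4% lower and 70.4% either. Among those with a mean count of at least 50, the largest were Ccl5, a chemokine gene, which went from 10.8 ± 1.9 to 1932 ± 36 CPM (log2 7.48), and Cxcl10, from 6.49 ± 0.66 to 269 ± 10 CPM (log2 5.38) (SD, n = 3). Both are also known targets of the IRF3 and interferon pathways. Il15 (log2 4.30), a cytokine gene read at 9.72 CPM in WT with CMA, and Nos2 (log2 2.68), the inducible nitric oxide synthase gene, followed. The 4 lower genes were Ccl3 (log2 -0.86), Sod2 (log2 -0.85), Ier3 (log2 -0.20) and Tnfrsf9 (log2 -0.13), which were named after their values were seen, apart from Ier3. In STINGgt/gt, 5 of the 30 were higher and 1 lower, against 0.398% and 0.92% of all genes tested. Ccl3 was among the higher ones there (log2 0.68), opposite to WT, and its interaction term was -1.53. Il2, the T cell growth factor gene, was higher with CMA in both genotypes (log2 2.63 in WT and 0.82 in STINGgt/gt), and Cxcl10 was higher in STINGgt/gt by 0.43. Ier3 was lower in both (log2 -0.20 in WT and -0.55 in STINGgt/gt). Vcam1, Ccl2, Ccl20, Cxcl1, Cxcl2, Bcl2a1a, Mmp9 and Il12b were not tested, being under the filter on low counts or not matched by symbol.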

How the data were processed

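RNA-seq libraries of cultured mouse CD4+ T cells (TruSeq Stranded mRNA kit, single reads, 4 groups of 3) were analysed from the files the authors deposited. Per the submitters' processing notes, cutadapt 1.3, STAR 2.4.0f1, HTSeq 0.6.1 and RSEM 1.2.16 were used with the mouse build GRCm38; the strand setting and the annotation release are not given in the sources used here. The main values were the deposited read counts per gene, 1 file per library, with reads counted as not unique (27.8 to 30.3%), without a feature (4.86 to 7.16%) or ambiguous (0.594 to 0.635%) kept apart and out of library sizes. The authors also deposited a log2 table of 11921 genes, which equals log2(count + 0.5) plus 1 constant per library (within 1e-09) and served only as an alternative and for gene symbols; other symbols came from the annotation.

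Counts were fitted in R 4.3.3 with edgeR 4.0.16 (TMM scaling, filterByExpr by group, quasi-likelihood test, all 12 libraries in 1 model), with p-values adjusted by Benjamini-Hochberg over 13811 genes, 2-sided, threshold 0.05. The procedure was run on simulated data with 200 of 12882 genes changed in WT with CMA. For CMA in WT edgeR recovered 180 with 12 false calls, for the interaction 176 with 17, and between genotypes with CMA 183 with 8. Each comparison without changed genes gave 1 false call. In these data 70.4% of genes tested were called for CMA in WT, so the simulation did not check the scaling in that setting. SE values were derived from the log2 difference and its F statistic. CPM are TMM-scaled. With 3 against 3 libraries an exact permutation test cannot go below p = 0.1 and was not used. Exon lengths came from GENCODE M21 (GRCm38), promoters from RefSeq. The printed gene positions of Nfkb2, Rel, Nfkbia and Nfkbie differ from those of M21, which places Nfkb2 at chr19:46304320-46312385. Alternatives were library-size scaling, DESeq2 1.42.0, limma 3.58.1 (voom, and on the log2 table), omitting the filter or asking 10 counts of every library, fits on the compared groups alone, replicate blocks and leaving out each library; the length of 1 transcript was added after seeing the data. The 10 genes, the pathway lists and the tests were chosen with earlier results of these data known. From each pathway list, at most 4 called genes with the largest change in WT and a mean count of at least 50, and at most 2 called in STINGgt/gt, were named; some genes that met these rules are not reported here.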

Additional observations from a re-analysis of the deposited data

Results flagged for a closer look

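For 7 of the 10 genes the response to CMA differed between the genotypes by the interaction term (edgeR's quasi-likelihood test), where 58.8% of all genes tested were called and 27.2% in the direction of these 7. On the log2 scale the WT response exceeded that in STINGgt/gt by 1.98 for Nfkbie, 1.97 for Nfkbia, 1.93 for Tnfaip3, 1.71 for Nfkb2, 1.17 for Relb, 0.51 for Nfkbiz and 0.15 for Rela, and of these only the call of Rela was lost under any alternative.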

How the results depend on the processing

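Over 1020 alternative values of the 10 genes, 970 kept their direction and side of the threshold, 22 lost and 11 gained a call, and 17 changed sign, all of them for differences near 0. The 8 calls of CMA in WT held under all 21 alternatives. Nfkb1 changed sign in WT with the log2 table (0.0011) and with at least 10 counts in every library (0.0013), in the interaction term with the same settings (0.018 and 0.0047), and between genotypes with CMA under library-size scaling (-0.016). Nfkbia with DMSO was -0.018 under library-size scaling, -0.011 with DESeq2, -0.0010 with the log2 table, -0.0081 without a filter and -0.015 with at least 10 counts. For CMA in STINGgt/gt the number of genes called, 182, was 323 with DESeq2, 433 with no filter and 656 in fits on the compared groups alone, and 1 of the 10 genes (Rel) was called with the last 2 settings. Leaving out 1 library gave 56 to 458 genes, with 456 and 458 without replicates 2 and 3 of WT with DMSO and 56 to 103 without any single STINGgt/gt library, and 0 to 1 of the 10 genes; it moved Nfkbiz in STINGgt/gt between -0.0033 and 0.13, the interaction of Nfkb1 between -0.058 and 0.0029, and Nfkbia with DMSO between -0.046 and 0.045. The causes were not tested. For STINGgt/gt, DMSO and CMA libraries that share a replicate number had correlations of 0.059 to 0.063. Those with different numbers lay lower, from -0.061 to 0.0035. For WT the ranges overlapped, with 0.0019 to 0.13 for shared numbers and -0.15 to 0.056 for different ones. All these values were small, and whether the numbers mark pairs was not tested further. The main fit took no pairs. With the replicate block by number, 363 genes were called in STINGgt/gt, 8 of the 10 genes in the interaction (Rel added), and no other count of the 10 genes moved. With the replicate block by library name, 43 genes were called, 6 of the 10 in the interaction, and in STINGgt/gt Nfkb1 was 0.0055 and Nfkbiz -0.0052; the genotype comparisons could not be fitted with that block, nor the interaction on only 2 groups. The number of libraries, 3 per group, limits what can be said of differences near the spread of Rel.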
